A study of Oncorhynchus kisutch with 221 samples.

Results

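Coho salmon (Oncorhynchus kisutch) caught in their first summer at sea in 2009 were compared by catch area, 8 fish from the west coast of Vancouver Island (area label WCVI) against 49 fish from the Strait of Georgia. The fish were chosen by the season, year and area labels alone, with no measured value, and made up 57 of the 221 fish of the series. The Strait fish came from the southern Strait (label south_SoG, 17 fish) and from the northern and middle Strait (label NM_SoG, 32 fish). Each array carried the white muscle RNA of 1 fish beside a common pool made from all muscle samples of the series, so the values below are read as log2 ratios of 1 fish to that pool, where a difference of 1 means a doubling. Neither the log base nor the direction is stated, both were inferred from the values, and each higher or lower below rests on this reading. Samples were tissue of animals caught at sea without any treatment, and each array held 1 animal.

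Coho leave their rivers as smolts in spring and feed along the coast through their first summer, a time of fast growth and heavy losses. The Strait of Georgia is a sheltered inland sea, whereas the west coast faces the open Pacific and is passed by young fish from rivers farther south. White muscle is the fast, mainly glycolytic swimming muscle that makes up most of a salmon's body and takes up much of its growth. The condition factor, mass relative to the cube of the fork length, is the usual index of how heavy a fish is for its length.

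The groups differed in more than the place of catch. By the stock region label, 6 west coast fish were Columbia, 1 was North and 1 was Oregon, whereas 17 Strait fish were ECVI, 17 Fraser, 14 S_Main and 1 had no region. No region was found in both groups, so area and stock cannot be told apart. The west coast group held 7 wild fish and 1 hatchery fish, number 4, the Oregon fish, and the Strait group 26 wild and 23 hatchery fish. All 8 west coast fish were unsexed, while the Strait group held 17 females, 30 males and 2 unsexed fish, so sex could not enter the comparison. West coast fish are numbered 1 to 8 here, in the order of deposit. Fish 1 to 3, all wild Columbia fish, were caught at latitude 48.675° and lay on 1 slide. Fish 4 to 7 were caught at 49.107° and fish 8 at 49.836°.

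Across the 57 arrays 46.4% of the cells of the 43636 probes were empty, and the number of arrays limits the precision. The share of empty cells was 46.8% ± 7.99 (SD, n = 8) on the west coast, from 36.3% to 57.4%, and 46.3% ± 5.82 (SD, n = 49) in the Strait. An exact permutation test of the rank sum gave a two-sided p of 0.811. There were 27 slides for the 57 fish. West coast fish lay on 5 of them, and 1 slide held both groups. Over 12734 probes with a value in all 57 fish, a west coast fish lay beyond the range of the Strait fish at 1.63% to 6.48% of probes, with a median of 4.09%. A Strait fish lay beyond the range of the other Strait fish at a median of 2.15%, but northern and middle Strait fish 12, 5, 2, 24 and 16 did so at 24.8%, 20.9%, 16.5%, 15.4% and 14.7%. The next Strait fish was at 7.22%. The means were 4.03% on the west coast and 4.08% in the Strait, so on average west coast fish did not lie farther out. The arrays of northern and middle Strait fish 12, 5, 2, 24 and 16 also had the widest interquartile ranges of the 57. These were 0.979, 0.939, 0.871, 0.780 and 0.848, against a Strait median of 0.595. Whether array scale or expression set them apart was not tested. Results that change without the first 2 of these fish or without all 5 are given both ways below. Probes are named by their identifiers on the array, because the tables used here give them no gene. No muscle or blood marker could therefore be checked, and no role can be stated.

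West coast fish were lighter for their length than Strait fish. The condition factor, as 100 times mass in g over fork length in cm cubed, was 1.11, 1.19, 1.01, 1.08, 1.12, 1.10, 1.13 and 0.988 in fish 1 to 8. In the 45 Strait fish with a recorded mass it ranged from 0.979 to 1.39 with a median of 1.21. All 8 west coast fish lay below the Strait median, although the groups overlapped and 2 Strait fish lay below the lowest west coast fish. The means were 1.09 ± 0.0656 (SD, n = 8) and 1.20 ± 0.0922 (SD, n = 45), a difference of -0.11 (exact permutation test of the rank sum, two-sided p = 0.00164; Benjamini-Hochberg p = 0.0115 over 7 measures per fish). The difference was -0.151 against the 14 southern fish (exact permutation p = 0.0006) and -0.0913 against the 31 northern and middle fish (exact permutation p = 0.00842). The permutation tests here and below treat fish as independent, although fish of both groups shared catch positions. Their p-values measure spread between fish and not between catches. West coast masses were recorded in whole grams, whereas most Strait masses were recorded to fractions of a gram. Whether weighing differed between the areas was not tested.

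The lower condition factor was also seen among fish of like length and among wild fish. Over the 38 Strait fish within the west coast range of 14.2 to 21.1 cm, a subset chosen after seeing the data, the mean was 1.20 ± 0.0906 (SD, n = 38) and the difference -0.107 (exact permutation test, p = 0.00202). Among wild fish alone the difference was -0.118 (exact permutation test, p = 0.00587). Leaving out each west coast fish in turn gave differences between -0.124 and -0.0952. Within the Strait the condition factor was 1.23 ± 0.101 (SD, n = 15) in ECVI, 1.18 ± 0.105 (SD, n = 16) in Fraser and 1.19 ± 0.059 (SD, n = 13) in S_Main fish. Differences between these stock regions were not tested.

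**Figure D1:**
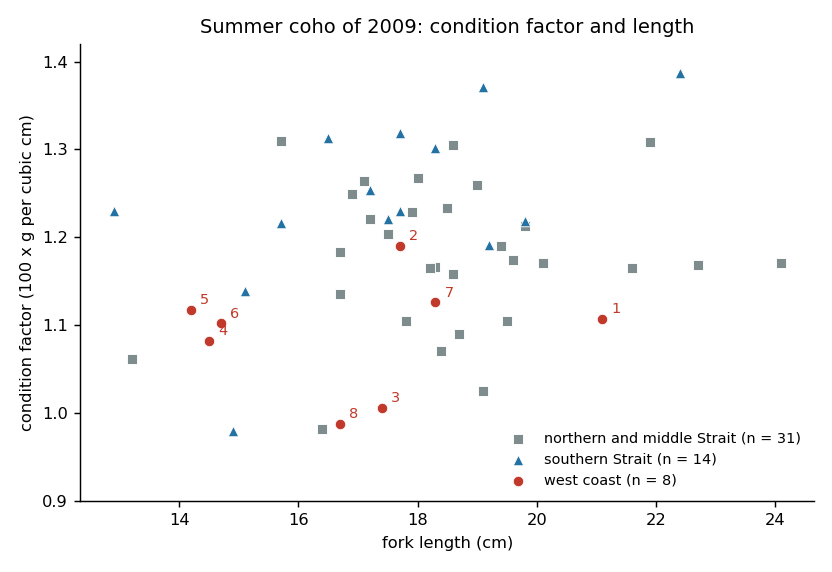
Condition factor (100 times g per cubic cm, vertical axis) against fork length (cm, horizontal axis) for each summer fish of 2009 with a recorded mass. Red circles are the 8 west coast fish with their numbers, blue triangles 14 southern Strait fish and grey squares 31 northern and middle Strait fish; the red points lie between 0.988 and 1.19, all below the Strait median of 1.21.

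Length differed less clearly than condition. Fork lengths of west coast fish 1 to 8 were 21.1, 17.7, 17.4, 14.5, 14.2, 14.7, 18.3 and 16.7 cm. Strait fish ran from 12.9 to 24.1 cm with a median of 18.0 cm. The 3 shortest west coast fish were caught at the same position, and 5 Strait fish were longer than the longest west coast fish. Means were 16.8 cm ± 2.34 (SD, n = 8) and 18.1 cm ± 2.22 (SD, n = 49), and the difference of -1.27 cm did not pass (exact permutation test of the rank sum, two-sided p = 0.11). Without fish 1 it was -1.88 cm (exact permutation p = 0.0246, not adjusted). Recorded mass was 54.8 g ± 24.5 (SD, n = 8) on the west coast, from 32 to 104 g, and 75.9 g ± 29.7 (SD, n = 45) in the Strait.

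In fall the 10 west coast fish stood the other way. Their condition factor was 1.31 ± 0.106 (SD, n = 10) against 1.23 ± 0.0622 (SD, n = 53) in the Strait, a difference of 0.0851 (exact permutation test of the rank sum, two-sided p = 0.00676). Their fork length was 30.1 cm ± 2.86 (SD, n = 10) against 24.5 cm ± 2.37 (SD, n = 58), a difference of 5.59 cm (exact permutation p = 2.33e-07). Adjusted over these 2 tests the p-values were 0.00676 and 4.66e-07. The west coast fish of fall were other animals with another mix of stock regions, 2 each of Columbia, North and Oregon, as found in summer, and 2 each of ECVI and Puget_Sound. By origin they were 9 wild and 1 hatchery fish, against 29 wild and 29 hatchery fish in the Strait, so origin was not balanced between the areas in fall either. The change of the area difference with season was not itself tested for these body measures.

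In muscle RNA no probe separated the summer fish of the west coast from those of the Strait at the threshold used. Probes with a value in 50% or more of the fish of both groups were tested, and limma, which fits a linear model per probe and borrows the spread across probes, gave p-values adjusted by Benjamini-Hochberg over all probes tested. Of 21748 probes 0 (0%) passed an adjusted p of 0.05, and the lowest adjusted p was 0.213. At an unadjusted p under 0.05 there were 1464 probes (6.73%), 834 higher and 630 lower on the west coast. At 0 probes (0%) did the 2 groups not overlap. With northern and middle Strait fish 5 and 12 left out, which was decided once the data had been seen, 3 probes passed, C010R062, C114R061 and C155R084, all higher on the west coast. Without all 5 fish named above, also decided afterwards, 2 passed, C010R062 and C155R084.

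The size of difference these arrays could bound varied by probe. The median absolute difference was 0.12 on the log2 scale and the median standard error 0.17. The 95% interval of the difference lay within 1 of 0 for 94.9% of the probes and within 0.5 of 0 for 57.2%. These intervals treat fish as independent, as do the limma fits without a slide block, although fish shared slides and catch positions. A difference of at least 1 was seen at 101 of the 21748 probes tested, 29 higher and 72 lower on the west coast. Of these, 57 had an unadjusted p under 0.05 in limma, 28 of them among the 29 higher ones. At 92 of the 101 the west coast fish themselves spread with an SD above 1, which choosing probes by a large difference favours. The spread of Strait fish at these probes and the share of all probes with such an SD are not given here.

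C114R061 had the lowest p. Its log2 ratio was -0.65, 0.51, -0.10, 1.91, 0.89, 1.74, 1.37 and -0.23 in west coast fish 1 to 8, and in the Strait it ran from -1.85 to 1.91 with a median of -0.92. The 4 fish caught at 49.107° were the 4 highest west coast fish, and all 8 lay above the Strait median. The west coast mean was 0.68 ± 0.96 (SD, n = 8) and the Strait mean -0.78 ± 0.80 (SD, n = 49), so that the west coast was 1.46 higher (SE 0.30, limma adjusted p = 0.213). It was 1.22 (SE 0.35) against the southern and 1.59 (SE 0.30) against the northern and middle Strait, with limma adjusted p of 0.384 and 0.0949. In fall both areas had means near -0.2, at -0.20 ± 0.66 (SD, n = 10) and -0.22 ± 0.73 (SD, n = 58).

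The call of C114R061 turned on the setting. Its adjusted p in limma was 0.0393 without Strait fish 5 and 12, 0.0853 without all 5 and 0.0491 without west coast fish 1. It was 0.0098 with array weights and 0.00543 when the spread was taken from all 221 fish. It was 0.155 with slide as a random block, 0.112 with slide as a fixed block over all 221 fish and 0.409 among wild fish. Over the 25 settings fixed at the start the difference of C114R061 ran from 1.12 to 1.92 with adjusted p from 0.00543 to 0.409. In 22 of the 25 it did not pass, among them a second copy of the same values, which could only repeat the main fit. The settings share most of their fish, so this is no count of independent tests. On the slide that held both groups, west coast fish 4 had 1.91 and the Strait fish -1.85, which was the lowest Strait value.

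C151R037 was the second higher probe by p. Fish 1 to 8 had 0.43, -0.20, 0.81, 0.99, 0.41, 0.34, 0.31 and -0.12, and the Strait fish ran from -1.32 to 0.58 with a median of -0.32. All 8 west coast fish lay above the Strait median and 2 of them above every Strait fish. The difference was 0.69 (SE 0.16, limma adjusted p = 0.213). The fall difference was -0.18 (SE 0.17, limma adjusted p = 0.677).

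C265R051 and C135R150 had the lowest p among probes lower on the west coast. C265R051 was -0.18, -1.22, -0.71, -0.56, -0.81, -1.27, -0.95 and 0.03 in fish 1 to 8, and -0.78 to 0.56 in the Strait with a median of -0.16. Of the 8 fish, 4 lay below every Strait fish while fish 8 lay above the Strait median. The difference was -0.59 (SE 0.13, limma adjusted p = 0.213). It was -0.57 (SE 0.14) with slide as a random block, and -0.16 (SE 0.21) in a fit of all 221 fish with slide as a fixed block.

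C135R150 was the most even of the 4 probes among west coast fish. It was -0.75, -0.50, -0.82, -0.52, -0.64, -0.62, -0.65 and -0.25 in fish 1 to 8, and -0.90 to 1.00 in the Strait with a median of 0.03. All 8 lay below the Strait median, but none lay below the lowest Strait fish. The difference was -0.60 (SE 0.13, limma adjusted p = 0.213), with -0.47 (SE 0.13) against the southern and -0.67 (SE 0.14) against the northern and middle Strait. In fall it was -0.20 (SE 0.13, limma adjusted p = 0.501).

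**Figure D2:**
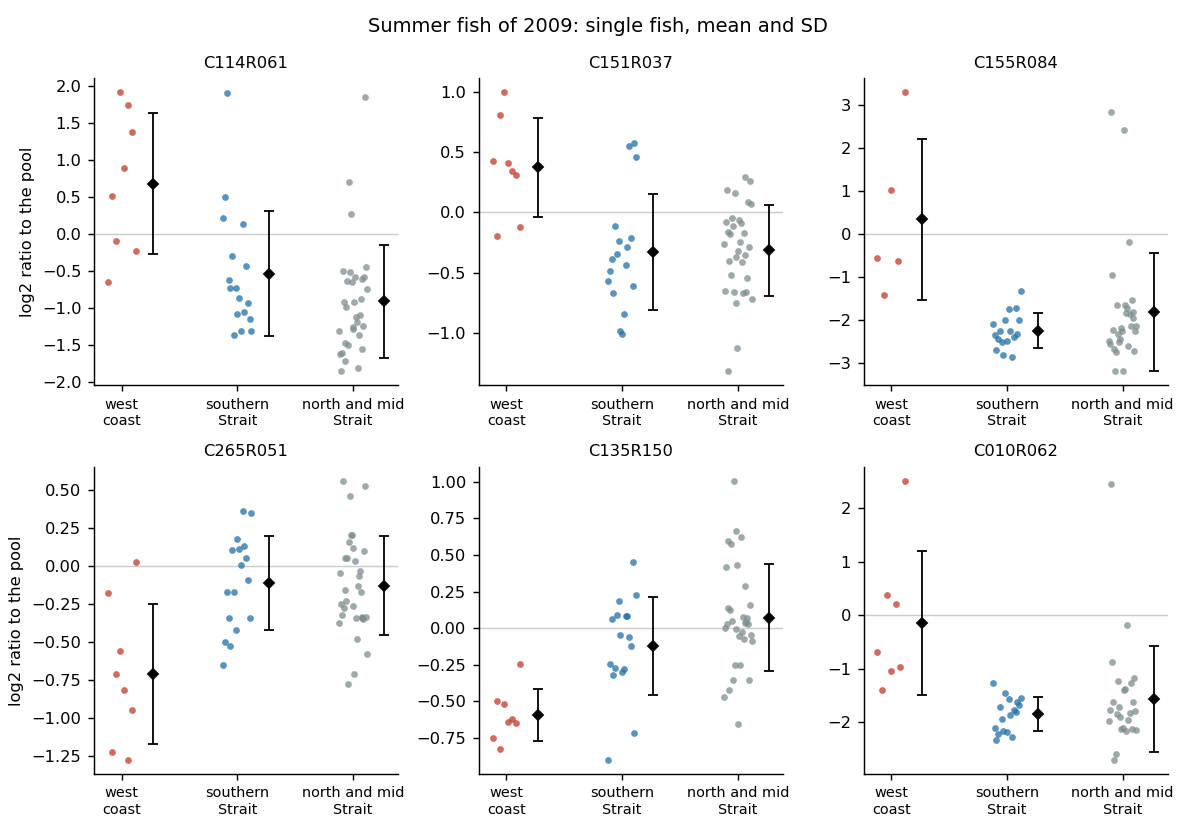
Log2 ratio to the pool (vertical axes) of 6 named probes in single summer fish of 2009: west coast (red), southern Strait (blue) and northern and middle Strait (grey), with the mean and SD as a black diamond and bar. The west coast values of C114R061, C151R037, C155R084 and C010R062 lie mostly above the Strait values, those of C265R051 and C135R150 mostly below, and every panel shows some overlap.

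Against the southern Strait alone 1 probe passed. Of 21565 probes tested on 8 and 17 fish, 1 (0.00464%) passed, C155R084, and 1968 (9.13%) had an unadjusted p under 0.05. C155R084 had no value in west coast fish 1 to 3, and in fish 4 to 8 it was -0.55, -1.40, 1.01, -0.63 and 3.29. The southern Strait fish ran from -2.86 to -1.32 with a median of -2.32, so 4 of the 5 measured west coast fish lay above every southern fish and fish 5 within their range. The difference was 2.59 (SE 0.42, limma adjusted p = 0.0428). With slide as a random block it was 2.60 (SE 0.43, limma adjusted p = 0.064). Among wild fish it was 2.78 (SE 0.54, limma adjusted p = 0.315), and without west coast fish 6 it was 2.42 (SE 0.46, limma adjusted p = 0.385), so the call was lost in all 3 settings.

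C010R062 was correlated with C155R084 across fish. It was -0.69, -1.40, 0.38, -1.05, 0.21, -0.97 and 2.51 in west coast fish 2 to 8 and had no value in fish 1. The southern Strait ran from -2.34 to -1.26 with a median of -1.82, and 6 of the 7 west coast values lay above all of it. The difference was 1.72 (SE 0.31, limma adjusted p = 0.0851). Over the 47 summer fish with both probes, which share array and slide, the correlation was 0.939 by Pearson and 0.724 by Spearman. Fish 8 was the highest summer fish in both, and northern and middle Strait fish 5 was the highest Strait fish, at 2.83 and 2.46. Northern and middle Strait fish 19, at 2.42 for C155R084, had no value for C010R062 and is not among the 47.

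Without northern and middle Strait fish 5 and 12 both probes passed against the whole Strait. The difference of C155R084 was then 2.41 (SE 0.46, limma adjusted p = 0.0272), against 2.31 (SE 0.54, limma adjusted p = 0.273) with all fish. That of C010R062 was 1.65 (SE 0.26, limma adjusted p = 0.0015), against 1.54 (SE 0.35, limma adjusted p = 0.213). Fish 5, the highest Strait fish of both probes, was among those left out. Without all 5 fish the differences were 2.45 and 1.68, at limma adjusted p of 0.015 and 0.000334. Fish 24, also among the 5, had -0.18 in both probes, the next highest Strait value of C010R062 after fish 5. Leaving out high Strait values favours a lower p at both probes. In fall their west coast means were -2.35 ± 0.65 (SD, n = 9) and -2.02 ± 0.55 (SD, n = 9), near the Strait means of -2.29 ± 0.63 (SD, n = 48) and -1.80 ± 0.55 (SD, n = 43).

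The lowest p among probes lower than in the southern Strait belonged to C037R151 and C092R138, which did not pass. C037R151 ran from -0.62 to 0.22 in the 8 west coast fish with a median of -0.21, and from -0.11 to 0.67 in the southern Strait with a median of 0.22. C092R138 ran from -0.42 to 0.53 in 7 west coast fish with a median of -0.18, and from 0.12 to 0.77 in the southern Strait with a median of 0.44. The differences were -0.47 (SE 0.11) and -0.50 (SE 0.12), both at a limma adjusted p of 0.375. Their differences from the northern and middle Strait were -0.14 (SE 0.16) and -0.25 (SE 0.19), with limma adjusted p of 0.947 and 0.907.

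Against the northern and middle Strait limma called 0 of 21947 probes (0%), while 1300 (5.92%) fell under an unadjusted p of 0.05. The 4 probes with the lowest p in each direction were those named for the whole Strait. For scale, the 17 southern and 32 northern and middle Strait fish were set against each other in limma, which called 0 of 21776 probes, while 1972 (9.06%) fell under an unadjusted p of 0.05. The share of probes at that level was thus 6.73% between the coasts and 9.06% within the Strait, with other numbers of fish per group.

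No probe passed for whether it gave a value at all. Of 28749 probes with both a value and an empty cell among the 57 fish, 0 (0%) passed Fisher's exact test after adjustment, and 1134 (3.94%) had an unadjusted p under 0.05. C235R063 had a value in all 49 Strait fish and in 4 of 8 west coast fish, those caught at 49.107°. C251R140 had one in 47 of 49 and in 3 of 8, fish 6 to 8. C127R157 had one in 3 of 49 Strait fish and 5 of 8 west coast fish, and C001R123 in 11 of 49 and 7 of 8. The lowest adjusted p was 0.931.

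Whole arrays of west coast fish resembled each other about as much as they resembled arrays of Strait fish. Over the tested probes, the mean Pearson correlation between fish on different slides was 0.286 for 24 pairs of west coast fish, 0.258 for 391 mixed pairs and 0.238 for 1139 pairs of Strait fish. Fish on 1 slide were closer, at a mean of 0.388 for 37 pairs of Strait fish. The correlation within slides in the limma fit was 0.166. On the 1 slide with both groups, 760 of 1717 measured probes (44.3%) had the sign found over the other fish, the probes having been chosen at an unadjusted p under 0.05 without these 2 fish.

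The area differences of fall were then looked up in the summer fish. In fall, 247 of 21679 probes (1.14%) passed between 10 west coast and 58 Strait fish, and 3117 (14.4%) had an unadjusted p under 0.05. An area score placed each summer fish on the line from the fall Strait mean at 0 to the fall west coast mean at 1 over these 247 probes, 162 higher and 85 lower on the west coast in fall. Scores of west coast fish 1 to 8 were 0.0779, 0.27, 0.226, -0.308, -0.451, -0.896, -0.373 and -0.432, and Strait fish ran from -0.999 to 0.566 with a median of -0.138. Fish 1 to 3, of 1 slide and 1 position, lay above 0 and the other 5 below it, so slide and position cannot be told apart here. The means were -0.236 ± 0.398 (SD, n = 8) and -0.123 ± 0.302 (SD, n = 49) (exact permutation test of the rank sum, two-sided p = 0.347; Benjamini-Hochberg p = 0.607). The difference of -0.113 ranged from -0.185 without fish 2 to -0.0183 without fish 6. Of the 247 probes, 71 (28.7%) had the same sign in summer as in fall, against 46.9% of all 21103 probes tested in both seasons. Summer and fall fish are different animals, but 5 of the 10 west coast fish of fall shared slides with summer fish.

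The season score did not pass over the whole Strait either. It placed fish between the spring mean at 0 and the fall Strait mean at 1, over 3775 of 21138 probes (17.9%) that passed between 15 spring and 58 fall Strait fish. All 15 spring fish were wild fish of the southern Strait. The fall Strait fish came from both Strait areas, 29 of them wild and 29 hatchery, so season was not separated from origin and Strait area in this score. West coast fish 1 to 8 had 0.561, 0.547, 0.562, 0.444, 0.155, -0.0387, 0.942 and 0.185, and the Strait fish ran from -0.456 to 1.65 with a median of 0.596. Of the 8 fish, 7 lay below the Strait median. The difference of the means was -0.131 (exact permutation test of the rank sum, two-sided p = 0.271; Benjamini-Hochberg p = 0.607). It ranged from -0.206 without fish 7 to -0.066 without fish 6. Against the southern Strait alone it was -0.276 (exact permutation p = 0.0266, not adjusted). The first principal component of the series, with 17.1% of the variance, also held west coast fish within the Strait range, from -25.2 to 21.7 against -56.6 to 42.6 (exact permutation p = 0.565).

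**Figure D3:**
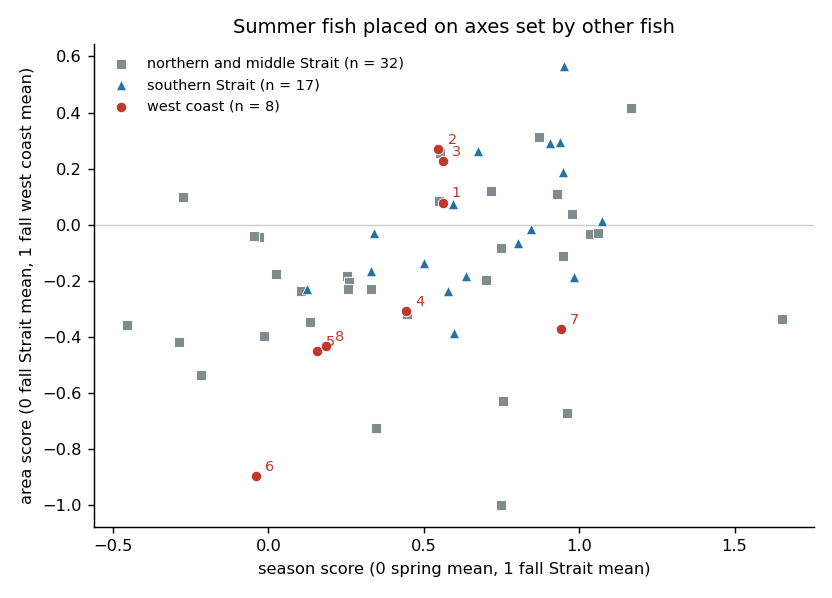
Season score (horizontal axis, 0 at the spring mean and 1 at the fall Strait mean) and area score (vertical axis, 0 at the fall Strait mean and 1 at the fall west coast mean) of each summer fish. West coast fish (red circles, numbered) lie among the southern (blue triangles) and northern and middle (grey squares) Strait fish, with area scores from -0.896 to 0.27 and season scores from -0.0387 to 0.942.

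The area difference itself depended on season at some probes. In 1 limma fit of 57 summer and 68 fall fish the interaction of area and season passed at 92 of 21103 probes (0.436%), 43 with a higher and 49 with a lower west coast difference in summer than in fall, and 2508 (11.9%) had an unadjusted p under 0.05. All 92 had opposite signs in the 2 seasons, which choosing by the interaction favours. The median differences of the 43 were 0.39 in summer and -0.46 in fall, and those of the 49 were -0.32 and 0.53. Of the 92, 55 had passed in fall alone and 52 had an unadjusted p under 0.05 in summer alone. Over all probes tested in limma, 1.14% passed in fall and 6.73% had an unadjusted p under 0.05 in summer. Choosing by the interaction raises both shares, so they are no independent support. The count of 92 fell to 8 with slide as a random block, all of them among the 92. It also fell to 8 without summer fish 6, to 19 without fish 7 and to 24 without fish 5, and was 148 without fish 4. Without the 5 northern and middle Strait fish that stood apart it was 145. Without fall west coast fish 2, 3, 4, 6, 9 or 10 it lay between 38 and 60. Summer fish 4 to 7 came from 1 catch position.

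C205R018 had the lowest p of the interaction. In summer it was -0.03, -0.57, -0.80, -0.59, -0.91, -2.23, -1.31 and -0.78 in west coast fish 1 to 8, and in fall it ran from 0.06 to 2.14 in the 10 west coast fish with a median of 0.89. No summer fish of the west coast reached the lowest fall fish, which choosing the probe by its interaction favours. The Strait medians were -0.48 in summer and -0.20 in fall. The west coast difference was -0.51 (SE 0.20) in summer and 1.16 (SE 0.16) in fall, an interaction of -1.66 (SE 0.26, limma adjusted p = 3.38e-05). With slide as a random block the limma adjusted p was 0.00048.

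C236R132 turned the other way. In summer it was 0.32, 0.68, 1.27, 0.55, 1.47, 2.44 and 1.97 in west coast fish 1 to 7, with no value in fish 8, and in fall it ran from -1.51 to -0.77 in 8 fish. The groups of the 2 seasons did not overlap on the west coast. Choosing the probe by its interaction favours this, and the share of all probes that separate these groups was not counted. Strait fish ran from -2.51 to 2.34 in summer and from -2.78 to 1.48 in fall, with medians of 0.18 and 0.14. In summer the median was 0.93 in the northern and middle Strait and -0.19 in the southern Strait. The west coast difference was 0.98 (SE 0.45, limma adjusted p = 0.715) in summer and -1.33 (SE 0.28, limma adjusted p = 0.00798) in fall. The interaction was 2.32 (SE 0.54, limma adjusted p = 0.0308), and with slide as a random block its limma adjusted p was 0.0831.

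C155R084 and C011R079 complete the probes named for the interaction. For C155R084 it was 2.38 (SE 0.55, limma adjusted p = 0.0308; with slide as a random block 0.0694). C011R079 was 0.28, 1.01, -0.76, -0.80, -1.18, -1.20 and -1.08 in west coast fish 2 to 8 in summer, and 0.63 to 2.21 in fall. Of these 7 only fish 2 and 3, of the slide with 3 west coast fish, lay above 0, and fish 3 lay within the fall range. The Strait medians of C011R079 were -0.24 in summer and 0.08 in fall. The west coast difference was -0.50 (SE 0.35, limma adjusted p = 0.847) in summer and 1.21 (SE 0.27, limma adjusted p = 0.0121) in fall. The interaction was -1.70 (SE 0.45, limma adjusted p = 0.0499), and with slide as a random block its limma adjusted p was 0.152. Among the probes named for summer, C265R051 and C010R062 also passed in the interaction. C265R051 was at -0.84 (SE 0.17, limma adjusted p = 0.00638; with slide as a random block 0.0361). C010R062 was at 1.76 (SE 0.39, limma adjusted p = 0.0308; with slide as a random block 0.0542).

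**Figure D4:**
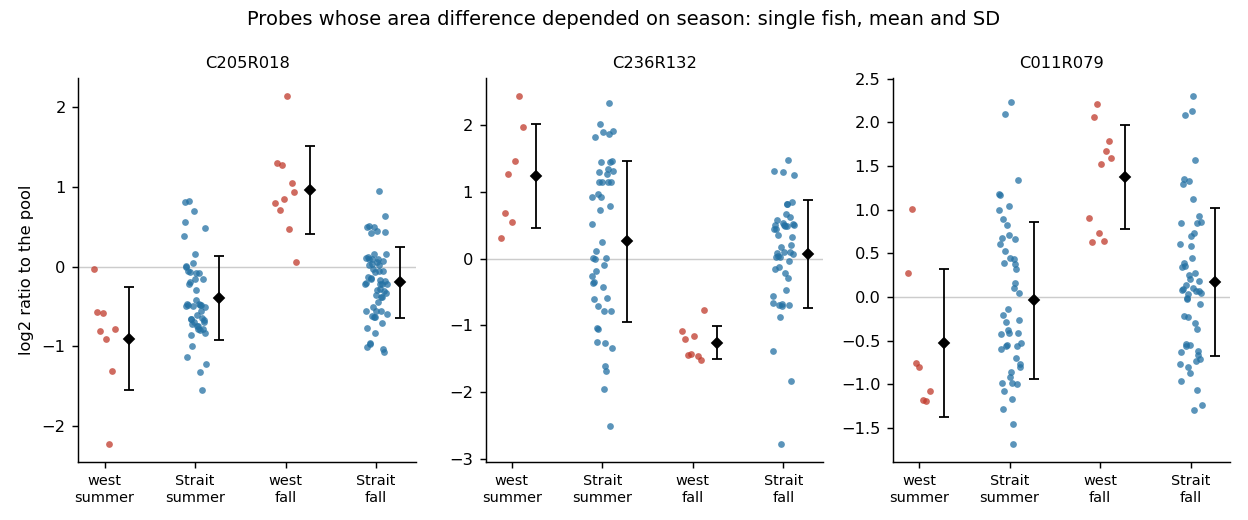
Log2 ratio to the pool (vertical axes) of 3 probes in single west coast (red) and Strait (blue) fish of summer and fall 2009, with the mean and SD as a black diamond and bar. On the west coast C205R018 is lower in every summer fish than in any fall fish and C236R132 higher, while C011R079 is lower in most summer fish but overlaps between the seasons, and Strait fish of the 2 seasons overlap in all 3. The probes were chosen by their interaction, which favours such separation.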

How the data were processed

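The authors deposited 1 value per probe and fish, here read as a log2 ratio with the fish over the pool. Fish and pool carried a different Alexa dye each, the same way round on every array, per the labels' protocols. Spot quantification, background correction, normalization, the filter behind empty cells, log base and direction: not given in the sources used here. Array medians of the 57 fish lay between -0.01 and 0.03. The mean linear ratio to a pool of the same fish should be near 1. At 533 probes whose variance exceeded 1 its log2 had a median of -0.05 for fish over pool, 1.24 for pool over fish and 0.49 for natural logs, so base and direction are likely but not stated. The lowest correlation between 2 of the 57 arrays was -0.388, and 5 of 1596 pairs lay below -0.3. The dyes are stated, so the direction was kept. The highest was 0.737, which gave no sign of an array deposited again.

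The comparison was fitted on the 57 fish with lmFit and eBayes of limma 3.58.1 in R 4.3.3 (statmod 1.5.0 for slide as a random block), after leaving out 60 control rows, without covariates and with a threshold of 0.05. Among the 19 control rows measured often enough limma called 0, and 1 lay under an unadjusted p of 0.05. Empty cells stayed empty, so a probe's n can be below its group's. For each comparison the text names the 2 probes with the largest differences in each direction among those that passed and, where fewer passed, those with the lowest p. Scores are least squares positions. The first component used 14792 probes with a value in at least 95% of the 221 fish, the probe mean standing in empty cells. A recorded mass of 0 was taken as missing. None of the probe identifiers matched the Okis_V2 gene table, so the gene lists and cell type markers planned were not tested. Alternatives were covariates, slide as a block, subsets of fish, other scalings and filters, array weights and leaving out single fish. Fits were tested on simulated data with independent fish. These held no slide or catch structure, so they cannot show how the fits behave under it. The groups, probes and lists were chosen with earlier results of these data known.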

Additional observations from a re-analysis of the deposited data

Results flagged for a closer look

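The area difference of 92 probes depended on season in a test of the interaction itself. Fish of fall and summer are different animals in another mix of stock regions, though west coast fish of both seasons included Columbia, North and Oregon fish, and slide moved with the count, which was 8 with slide as a random block. The part of slide and stock in these 92 was not tested further.

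Of 29 sets of 4 to 10 values examined, 2 had a fish far from the others; chance gives about 1 such set in 20. The interquartile range of all values on an array was 0.439 in west coast summer fish 4, the hatchery fish of the Oregon stock region, while the 8 fish had a median of 0.651. C265R051 was at -0.75 in west coast fish 7 of fall, with a group median of 0.13.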

How the results depend on the processing

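The count of probes between the west coast and the whole Strait was 0 and became 7 with the spread taken from all 221 fish, 3 without northern and middle Strait fish 5 and 12, 2 without fish 2, 5, 12, 16 and 24, 2 with array weights and 1 with Columbia fish alone as the west coast group (C018R080); without single west coast fish it ranged from 0 to 1, the probe being C114R061 without fish 1 and C050R006 without fish 4. With array weights the probes were C010R062 and C114R061. The other settings gave 0, and unadjusted counts ran from 695 to 2119. Against the southern Strait the count of 1 became 0 among wild fish and 0 with slide as a random block, and ranged from 0 to 3 without single fish, being 0 without fish 6, 3 without fish 3 and 2 without fish 5 or fish 8. Against the northern and middle Strait it was 1 without Strait fish 5 and 12 (C114R061) and ranged from 0 to 2 without single west coast fish, 1 without fish 1 and 2 without fish 4. The interaction count of 92 became 42 among wild fish and 8 with slide as a random block, was 145 without the 5 Strait fish, and ranged from 8 to 148 without single fish. The difference in condition factor kept its direction in each of its alternatives, from -0.151 to -0.0913. Each had an unadjusted exact permutation p under 0.05. Fork length ranged from -1.88 to -0.898 cm without single fish, with an unadjusted exact permutation p of 0.0246 without fish 1. The season score was at -0.276 against the southern Strait alone, with an unadjusted exact permutation p of 0.0266. Among measures that did not pass, the first component and the share of empty cells changed sign. Fork length, the area score and the season score kept theirs. The first component was 1.73 higher among wild fish and 2.15 higher against the northern and middle Strait, and ranged from -5.79 to 0.90 without single fish. The share of empty cells differed by -0.428 among wild fish and by -1.001 to 2.02 without single fish. The cause of these changes was not tested. Settings without Strait fish 5 and 12 or all 5, within the west coast length range, and without single fish for the 2 Strait areas and the interaction were chosen after seeing the data. No paired analysis was possible because replicate numbers follow the order of deposit and pair no fish.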
